A study of Homo sapiens with 12 samples.

Results

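After 48 h of exposure of HK-2 cells to Aa at the dose labelled low, 70 genes had a probe set that was higher than in control cells and another probe set of the same gene that was lower. A probe set is a group of short oligonucleotides on the array that together read a stretch of a transcript. The genes were chosen among the 4763 genes that had at least 2 eligible probe sets, where eligible means that the probe set was annotated to that gene alone, had a mean log2 intensity of at least 4 over the 12 arrays, and had no name ending in _x_at. A gene was taken as a member when the mean of the 48 h Aa arrays minus the mean of the 48 h control arrays was at least +0.7 on the log2 scale in one probe set and at most -0.7 in another. That was the case for 1.47% of the 4763 genes. The 70 genes had 237 eligible probe sets in all, 2 to 6 per gene.

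The arrays came from HK-2 cells, an immortalised line of human renal proximal tubular epithelium. They form 4 groups, each with 3 replicates that are labelled biological. The groups were low-dose Aa at 24 h, control at 24 h, low-dose Aa at 48 h and control at 48 h. All groups shared a medium with EGF, hydrocortisone, insulin, transferrin and selenite. Controls received the vehicle, which is not named in the sources used here, and neither the numeric dose nor the full name of Aa is given there. The series is part of a search for expression signatures of toxicity over several compounds. Each array measured RNA of a whole culture, so fewer cells of a kind and less RNA per cell cannot be told apart.

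Many human genes make several transcripts that differ in their start, in the exons they keep, or in the site where the RNA is cut and polyadenylated. Arrays of this type label RNA from its poly(A) tail, so a probe set reads mainly the sequence near the end of the transcripts it was designed on. Probe sets of a single gene can therefore read different transcripts, and each is described here on its own. The positions and sequences of the probes were not used here, so which exon, intron or untranslated region a probe set reads is not given.

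Of the lists of cell type markers, proximal tubule genes had 3 of 13 measured members at a mean of at least 4 (CDH6, PAX8 and SLC3A1), while LRP2, CUBN and AQP1 were among the 10 below it. Each sum below takes the brightest probe set of a marker, leaving out names ending in _x_at. The 10 low markers are part of it. PAX8 had probe sets that changed by 0.70 and -0.70 at 48 h, so its part depends on the probe set taken. The summed log2 level of the 13 was 55.43 to 57.26 in Aa cells against 58.42 to 58.59 in control cells at 24 h, and 53.62 to 55.97 against 58.36 to 59.41 at 48 h. Of 6 fibroblast markers 3 reached that mean (COL1A1, DCN and LUM), with summed levels of 35.94 to 37.37 in Aa cells and 37.66 to 38.85 in control cells at 24 h, and 36.29 to 37.20 and 36.80 to 37.68 at 48 h, where they overlapped. All 3 epithelial markers measured did (CDH1, EPCAM and KRT19), with 30.73 to 31.07 in Aa cells and 32.08 to 32.88 in control cells at 24 h, and 31.44 to 32.58 and 32.33 to 33.32 at 48 h. The epithelial sums at 48 h overlapped as well. None of the 4 distal nephron, 5 endothelial and 4 leukocyte markers measured reached 4. The actin control probe sets, whose 3′ minus 5′ signal grows as RNA degrades, gave 0.82 ± 0.16 (SD, n = 3) in Aa cells and 0.79 ± 0.10 in control cells at 24 h, and 0.90 ± 0.22 and 0.78 ± 0.19 at 48 h. The part of these differences in the results below was not tested.

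Because the members were chosen on the 48 h arrays, their 48 h changes are given as a description, without a test. The 24 h arrays entered the choice only through the mean level over 12 arrays, and there the same probe sets could be tested. In all 70 genes the probe set that was highest at 48 h also lay above the one that was lowest when their changes at 24 h were compared, as it did in 77.3% of the 4693 other genes. This difference between the changes of the 2 probe sets passed the test (limma, Benjamini-Hochberg adjusted p under 0.05 over 11379 within-gene pairs) in 66 of the 70 genes. Over the 4763 genes, the pair of the highest and lowest probe set passed in that direction in 24.6%. With the replicate number as a block 68 of the 70 passed. Of all within-gene pairs 21.8% passed in that direction, and 30.2% with the block. The median difference at 24 h was 2.28 in the members and 0.24 over the 4763 genes. The members were chosen for large differences, however. Among the 293 other genes whose highest and lowest probe sets were at least as far apart at 48 h as in the closest member, but without a rise and a fall of 0.7, the share that passed at 24 h was 84.0%. The mean level that made a probe set eligible was reached only through the group where it was high in the highest probe sets of FXR1, AKT2 and WDR13, whose control arrays averaged below 4, and in the lowest of PRSS23, AHSA2P and SH3BP2, whose Aa arrays did. Such probe sets had to differ to be eligible. Among the 64 genes with neither, the difference passed in 60. A difference that was already there at 24 h is thus not particular to the 70 genes.

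**Figure D1:**
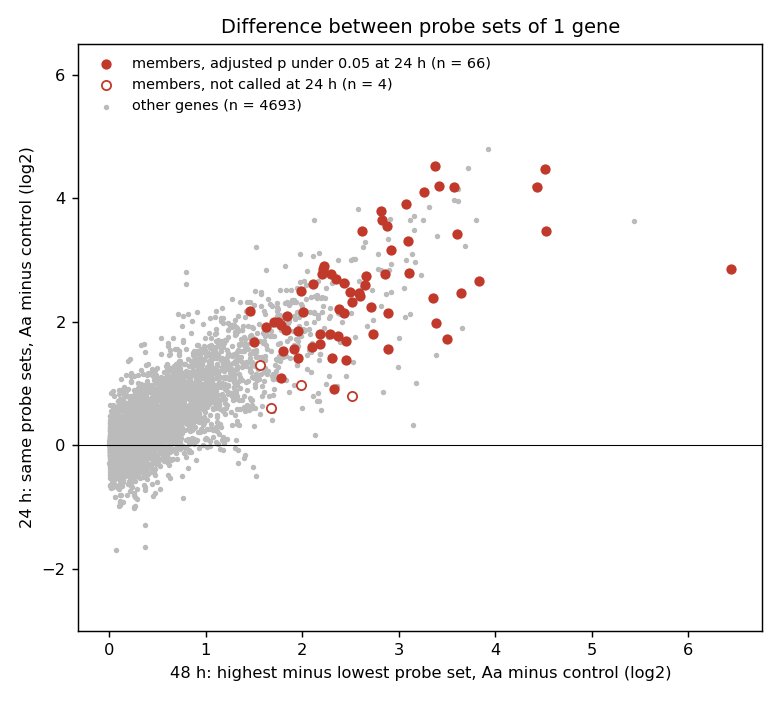
Difference between the highest and the lowest probe set of each gene, as Aa minus control on the log2 scale, at 48 h on the horizontal axis and at 24 h on the vertical axis. All 70 members (red) lie above 0 at 24 h, as do 77.3% of the other genes, and 66 of them (filled) passed the test there; the 4693 other genes with at least 2 eligible probe sets are grey.

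Taken singly at 24 h, the highest probe set rose in 54 of the 70 genes and the lowest fell in 51. Over all 17887 eligible probe sets 11.4% rose and 11.9% fell (18.5% and 22.2% with the replicate number as a block). Both held in 38 genes: the highest rose and the lowest fell. With the block the highest rose in 62 genes, the lowest fell in 63, and both held in 56. Without the probe sets that were eligible only through the group where they were high, 51 of 67 highest probe sets rose, 49 of 67 lowest fell, and both held in 35 of 64 genes. Counting any eligible probe set, 43 of the 70 genes had at least 1 that rose and at least 1 that fell, against 3.59% of the 4763 genes (59 genes and 8.65% with the block). MPHOSPH9 and CCDC50 were the 2 genes with at least 2 probe sets in each direction. With the block there were 6, FXR1, AKT2, LGALS8 and TFDP2 being the others. Whether or not it passed, the 24 h change of the highest probe set was above 0 in 69 genes, THSD4 being the exception (-0.15), and that of the lowest was below 0 in all 70. Without replicate 1 in all groups the highest probe set rose in 33 genes and the lowest fell in 29, and without replicate 3 the lowest fell in 32.

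The highest probe set had a larger change at 24 h than at 48 h in 40 of 70 genes, with medians of 1.21 and 1.13. The lowest probe set was further down at 24 h than at 48 h in 19 of 70, with medians of -0.95 and -1.16. Since membership was decided at 48 h, these medians describe the members and carry no test. All 3 Aa arrays lay above all 3 control arrays in the 24 h difference of 69 genes, against 36.3% of the 4763 genes. The exception was MCM3AP.

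**Figure D2:**
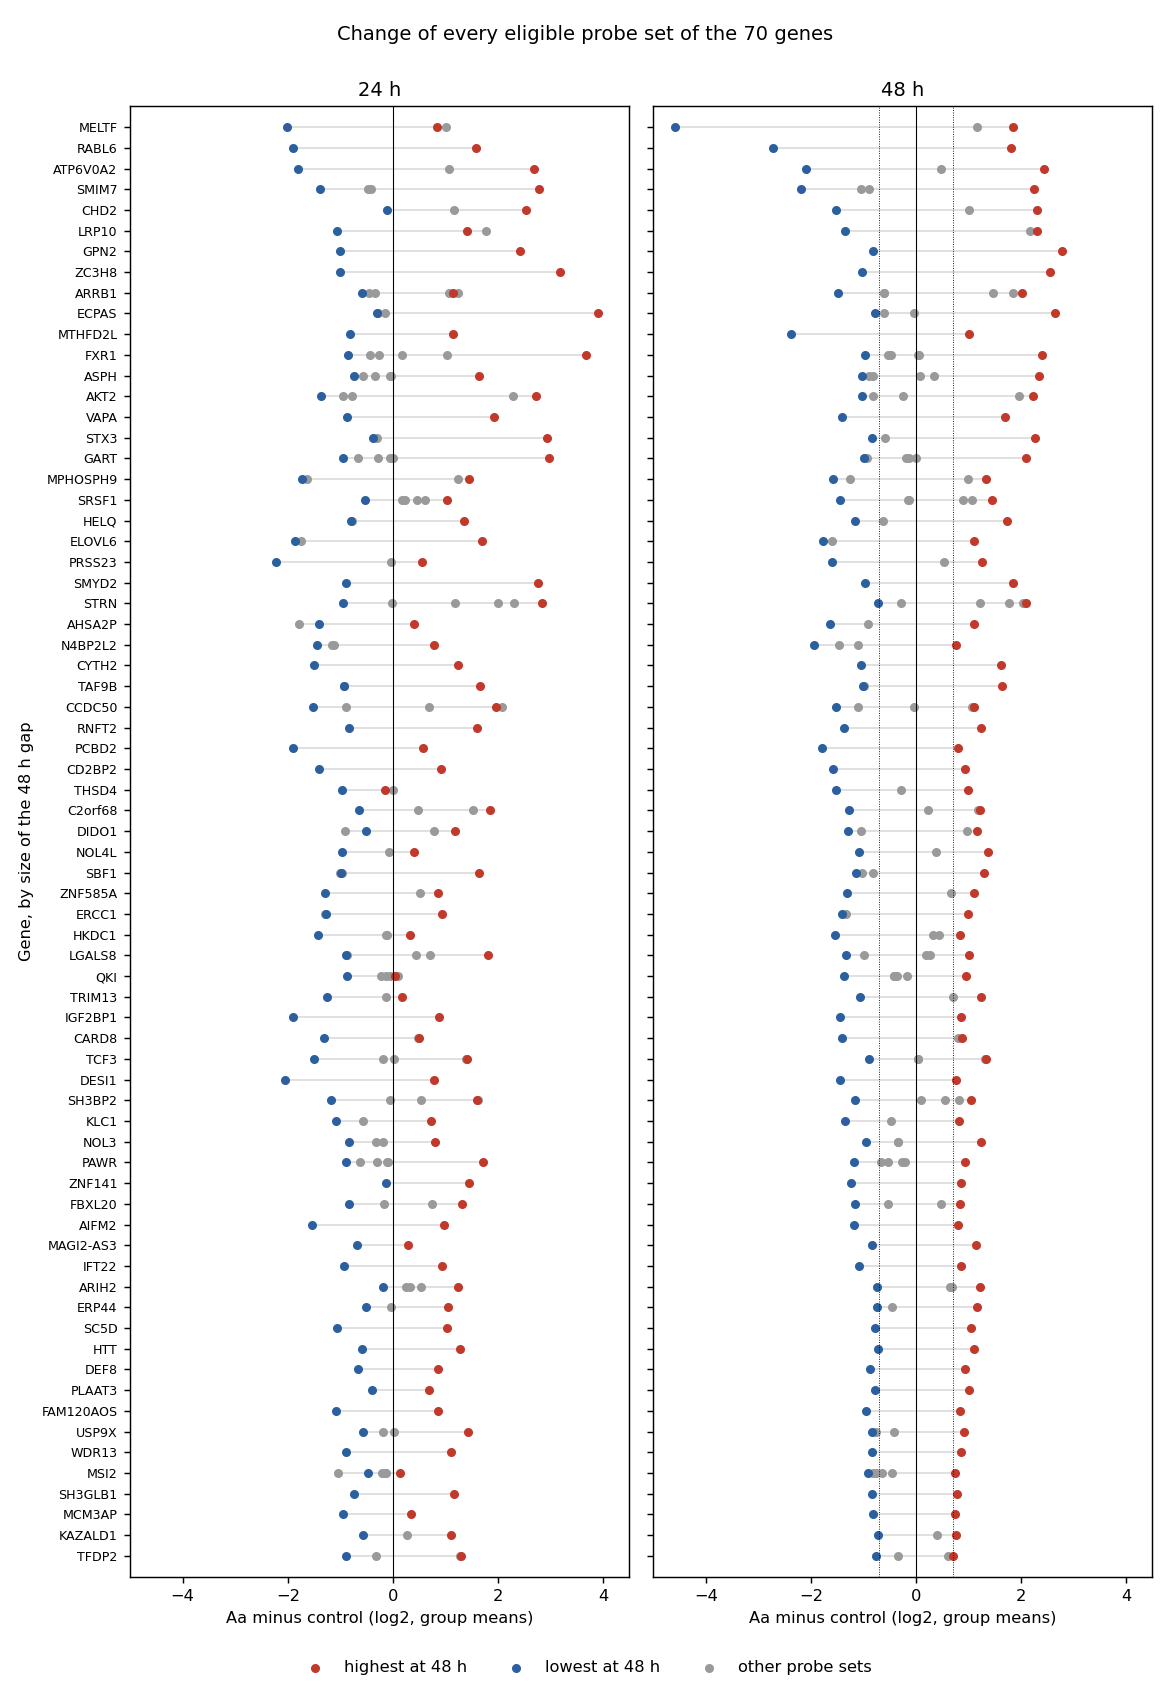
Change of each of the 237 eligible probe sets of the 70 genes at 24 h (left) and 48 h (right), as Aa minus control on the log2 scale, with genes ordered by the gap between highest and lowest at 48 h. Red marks the probe set highest at 48 h, blue the lowest and grey the others; dotted lines mark the thresholds of 0.7 at 48 h, and at 24 h the red points lie right of the blue ones in all 70 genes, as in 77.3% of the other genes.

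Genes of transcription, chromatin and RNA handling made up the largest group, 18 genes that were grouped by their known functions after the members had been found. The share of this or any other functional group among the genes from which the members were chosen was not counted. Whether a group is larger among the members than among those genes was therefore not tested. In 16 of the 18 the 24 h difference passed the test, the highest probe set rose in 13, the lowest fell in 12, and both held in 9. Over all 70 members these counts were 66, 54, 51 and 38. CHD2 encodes a chromatin remodelling enzyme and was read by 3 eligible probe sets. Probe set 225077_at read 11.68, 11.05 and 11.61 in Aa cells against 8.80, 9.16 and 8.75 in control cells at 24 h. At 48 h 225077_at read 11.45, 10.90 and 11.42 in Aa cells against 8.96, 9.02 and 8.89 in control cells. This probe set rose by 2.54 at 24 h (SE 0.20, adjusted p = 1.99e-05 in limma) and was brighter in every Aa array than in any control array. Probe set 228999_at read 4.55, 4.19 and 4.40 in Aa cells against 4.44, 4.74 and 4.32 in control cells at 24 h. At 48 h 228999_at read 4.43, 4.33 and 4.17 in Aa cells against 6.29, 6.27 and 4.97 in control cells. Its groups overlapped at 24 h, with a change of -0.12 (adjusted p = 0.817), and lay apart at 48 h (-1.53), where 2 of the control arrays were above 6. Another probe set, 1554015_a_at, rose by 1.17.

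ZC3H8 encodes a zinc finger protein of the complex that transcribes small nuclear RNA genes. Probe set 239644_at read 7.72, 6.59 and 7.68 in Aa cells against 4.28, 4.35 and 3.80 in control cells at 24 h. At 48 h 239644_at read 7.5, 6.92 and 7.35 in Aa cells against 4.65, 4.64 and 4.83 in control cells. This was a rise of 3.18 at 24 h (SE 0.28, adjusted p = 4.78e-05), and the Aa arrays were far above the controls at both times. Probe set 223506_at read 6.94, 7.00 and 7.10 in Aa cells against 7.93, 7.94 and 8.18 in control cells at 24 h. At 48 h 223506_at read 6.97, 7.54 and 7.32 in Aa cells against 8.48, 8.42 and 8.0 in control cells. The groups did not overlap, and the probe set fell by 1.00 at 24 h (SE 0.17, adjusted p = 0.00178). FXR1, an RNA-binding protein related to the fragile X protein, was read by 6 probe sets. Probe set 235960_at read 6.80, 6.10 and 6.71 in Aa cells against 2.81, 3.14 and 2.65 in control cells at 24 h. At 48 h 235960_at read 6.44, 5.95 and 6.01 in Aa cells against 4.17, 3.95 and 3.08 in control cells. The control arrays at 24 h were below 4, so the rise of 3.67 (SE 0.29, adjusted p = 1.98e-05) is uncertain in size, and the probe set was eligible only through its Aa arrays. Probe set 229519_at read 8.13, 8.55 and 8.03 in Aa cells against 9.04, 9.14 and 9.13 in control cells at 24 h. At 48 h 229519_at read 8.24, 8.81 and 7.98 in Aa cells against 9.44, 9.42 and 9.09 in control cells. This fell by 0.86 (SE 0.21, adjusted p = 0.0121), with no overlap at either time. Of the other 4 FXR1 probe sets 230201_at rose by 1.03, and 3 read -0.44 to 0.17 without passing. With the block 201635_s_at and 201637_s_at passed too (adjusted p = 0.00736 and 0.0395, both lower). The 24 h difference of 4.53 (SE 0.35, adjusted p = 5.4e-06) is as uncertain in size.

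TAF9B encodes a relative of a subunit of the general transcription factor TFIID. Probe set 228483_s_at read 10.05, 10.38 and 10.08 in Aa cells against 8.42, 8.55 and 8.57 in control cells at 24 h. At 48 h 228483_s_at read 10.35, 10.35 and 10.55 in Aa cells against 8.66, 9.05 and 8.62 in control cells. This probe set rose by 1.66 (SE 0.14, adjusted p = 3.04e-05). Probe set 221618_s_at read 8.45, 8.79 and 8.41 in Aa cells against 9.33, 9.49 and 9.64 in control cells at 24 h. At 48 h 221618_s_at read 8.32, 8.43 and 8.50 in Aa cells against 9.21, 9.69 and 9.39 in control cells. It fell by 0.94 (SE 0.15, adjusted p = 0.00145), and another probe set, 226037_s_at, fell by 0.92. The 24 h difference for TAF9B had the smallest adjusted p of all members, 4.39e-07.

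The other genes of this group are given by their 24 h change. The splicing factor gene SRSF1, known to control its own transcripts by splicing, had 226419_s_at up by 1.04 (adjusted p = 0.00588) and 227164_at at -0.52 (adjusted p = 0.117, and 0.0426 with the block). QKI, whose transcripts are known to differ at their ends, had 212636_at down by 0.87 (adjusted p = 0.0186) and 241938_at at 0.04 (adjusted p = 0.914). At 48 h 241938_at was higher by 0.96. SMYD2, a protein lysine methyltransferase gene, rose by 2.75 on 212921_at (adjusted p = 0.000236) and fell by 0.89 on 212922_s_at (adjusted p = 0.00233). TCF3, the E2A transcription factor, known for isoforms made by alternative splicing, had 209152_s_at down by 1.49 (adjusted p = 0.00255), while 215260_s_at read 1.41 (adjusted p = 0.0657, and 6.10e-05 with the block). IGF2BP1, an mRNA-binding protein gene, rose by 0.88 and fell by 1.90, and CD2BP2, a spliceosome protein gene, rose by 0.92 and fell by 1.41. N4BP2L2, TFDP2 (a partner of E2F factors) and ZNF585A also passed in both directions at 24 h. In DIDO1 and ZNF141 the highest probe set rose, and in NOL4L the lowest fell. A DIDO1 probe set other than its lowest at 48 h fell too. The RNA-binding protein gene MSI2 (0.60, SE 0.36, adjusted p = 0.287, and 0.0953 with the block) and MCM3AP, an mRNA export factor gene (1.30, SE 0.52, adjusted p = 0.101, and 0.00706 with the block), did not pass for the difference.

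Both DNA repair genes passed in both directions, as 38 of all 70 members did. ERCC1 encodes the partner of the XPF nuclease in nucleotide excision repair. Probe set 228131_at read 7.40, 7.33 and 7.18 in Aa cells against 6.36, 6.63 and 6.10 in control cells at 24 h. At 48 h 228131_at read 7.57, 7.62 and 7.56 in Aa cells against 6.75, 6.53 and 6.51 in control cells. This was a rise of 0.94 at 24 h (SE 0.13, adjusted p = 0.000784). Probe set 203719_at read 7.48, 7.32 and 7.54 in Aa cells against 8.86, 8.65 and 8.62 in control cells at 24 h. At 48 h 203719_at read 7.51, 7.5 and 7.53 in Aa cells against 9.16, 8.81 and 8.77 in control cells. This probe set fell by 1.27 (SE 0.12, adjusted p = 8.35e-05), and 203720_s_at fell by 1.29. No array of the Aa groups reached the range of the controls on any of these. HELQ, a DNA helicase gene, rose by 1.35 on 228736_at (adjusted p = 0.00577) and fell by 0.79 on 1554342_s_at (adjusted p = 0.0114).

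Of 11 genes of membranes, transport and vesicle traffic the 24 h difference passed in 11, the highest probe set rose in 11 and the lowest fell in 8. Over all 70 members these counts were 66, 54 and 51. ATP6V0A2 encodes a membrane subunit of the vacuolar proton pump. Probe set 229572_at read 8.97, 8.76 and 8.95 in Aa cells against 6.19, 6.11 and 6.34 in control cells at 24 h. At 48 h 229572_at read 8.63, 8.75 and 8.85 in Aa cells against 6.64, 6.34 and 5.97 in control cells. It rose by 2.68 at 24 h (SE 0.16, adjusted p = 4.58e-06). Probe set 205704_s_at read 6.02, 5.85 and 5.63 in Aa cells against 7.35, 7.75 and 7.82 in control cells at 24 h. At 48 h 205704_s_at read 5.05, 5.18 and 4.78 in Aa cells against 6.93, 6.99 and 7.34 in control cells. It fell by 1.80 (SE 0.17, adjusted p = 7.40e-05), and the remaining probe set, 235255_at, rose by 1.07. The groups of ATP6V0A2 lay apart on both probe sets at both times. RABL6 encodes a Rab-like GTPase and had 2 eligible probe sets. Probe set 225377_at read 8.57, 7.61 and 8.25 in Aa cells against 6.90, 5.69 and 7.12 in control cells at 24 h. At 48 h 225377_at read 8.81, 7.20 and 8.49 in Aa cells against 6.70, 6.09 and 6.29 in control cells. Replicate 2 was the lowest of its group in Aa and in control cells at both times. The rise was 1.57 at 24 h (SE 0.46, adjusted p = 0.030, and 0.000728 with the block). Probe set 219828_at read 5.91, 6.53 and 6.87 in Aa cells against 8.25, 8.41 and 8.35 in control cells at 24 h. At 48 h 219828_at read 5.17, 5.85 and 5.73 in Aa cells against 8.34, 8.02 and 8.56 in control cells. It fell by 1.90 (SE 0.25, adjusted p = 0.00045), with the Aa arrays lower still at 48 h.

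LRP10, a receptor of the LDL receptor family, had 2 probe sets that rose and 1 that fell. Probe set 231861_at read 7.46, 7.44 and 7.36 in Aa cells against 6.40, 5.83 and 5.79 in control cells at 24 h. At 48 h 231861_at read 8.30, 8.15 and 8.17 in Aa cells against 5.86, 6.09 and 5.77 in control cells. The rise was 1.42 at 24 h (SE 0.16, adjusted p = 0.000181), and 227252_at rose by 1.78. Probe set 201412_at read 10.18, 10.07 and 10.08 in Aa cells against 11.35, 11.08 and 11.09 in control cells at 24 h. At 48 h 201412_at read 9.78, 9.95 and 9.77 in Aa cells against 11.33, 11.06 and 11.13 in control cells. This fell by 1.06 (SE 0.11, adjusted p = 0.000142), with a narrow spread in every group. VAPA encodes a protein of the endoplasmic reticulum that tethers it to other membranes. Probe set 228480_at read 7.17, 6.40 and 6.5 in Aa cells against 4.86, 5.67 and 3.76 in control cells at 24 h. At 48 h 228480_at read 6.72, 6.59 and 6.42 in Aa cells against 5.28, 5.43 and 3.94 in control cells. Control values were spread widely here, and the rise of 1.93 had an SE of 0.47 (adjusted p = 0.0141). Probe set 225198_at read 8.59, 8.88 and 8.65 in Aa cells against 9.58, 9.51 and 9.63 in control cells at 24 h. At 48 h 225198_at read 7.85, 8.21 and 8.08 in Aa cells against 9.37, 9.45 and 9.54 in control cells. This fell by 0.87 (SE 0.12, adjusted p = 0.00060). Without replicate 1 in all groups the 24 h difference of VAPA was 2.54 with an adjusted p of 0.0629.

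CYTH2, an exchange factor for ARF GTPases, rose by 1.23 and fell by 1.51. SH3GLB1, the endophilin B1 gene, rose by 1.17 and fell by 0.74, IFT22, a gene of transport in cilia, rose by 0.93 and fell by 0.94, and KLC1, a kinesin light chain gene, rose by 0.72 and fell by 1.09. In STX3, a syntaxin gene of vesicle fusion, 235483_at rose by 2.94 while 216985_s_at read -0.37 (adjusted p = 0.209, and 0.0129 with the block). In SBF1 the highest probe set rose by 1.64, and the lowest read -1.0 (adjusted p = 0.198, and 0.0319 with the block), although 2 other probe sets of the gene fell. In DEF8 the highest probe set rose by 0.86, and the lowest read -0.67 (adjusted p = 0.0827, and 0.000643 with the block).

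**Figure D3:**
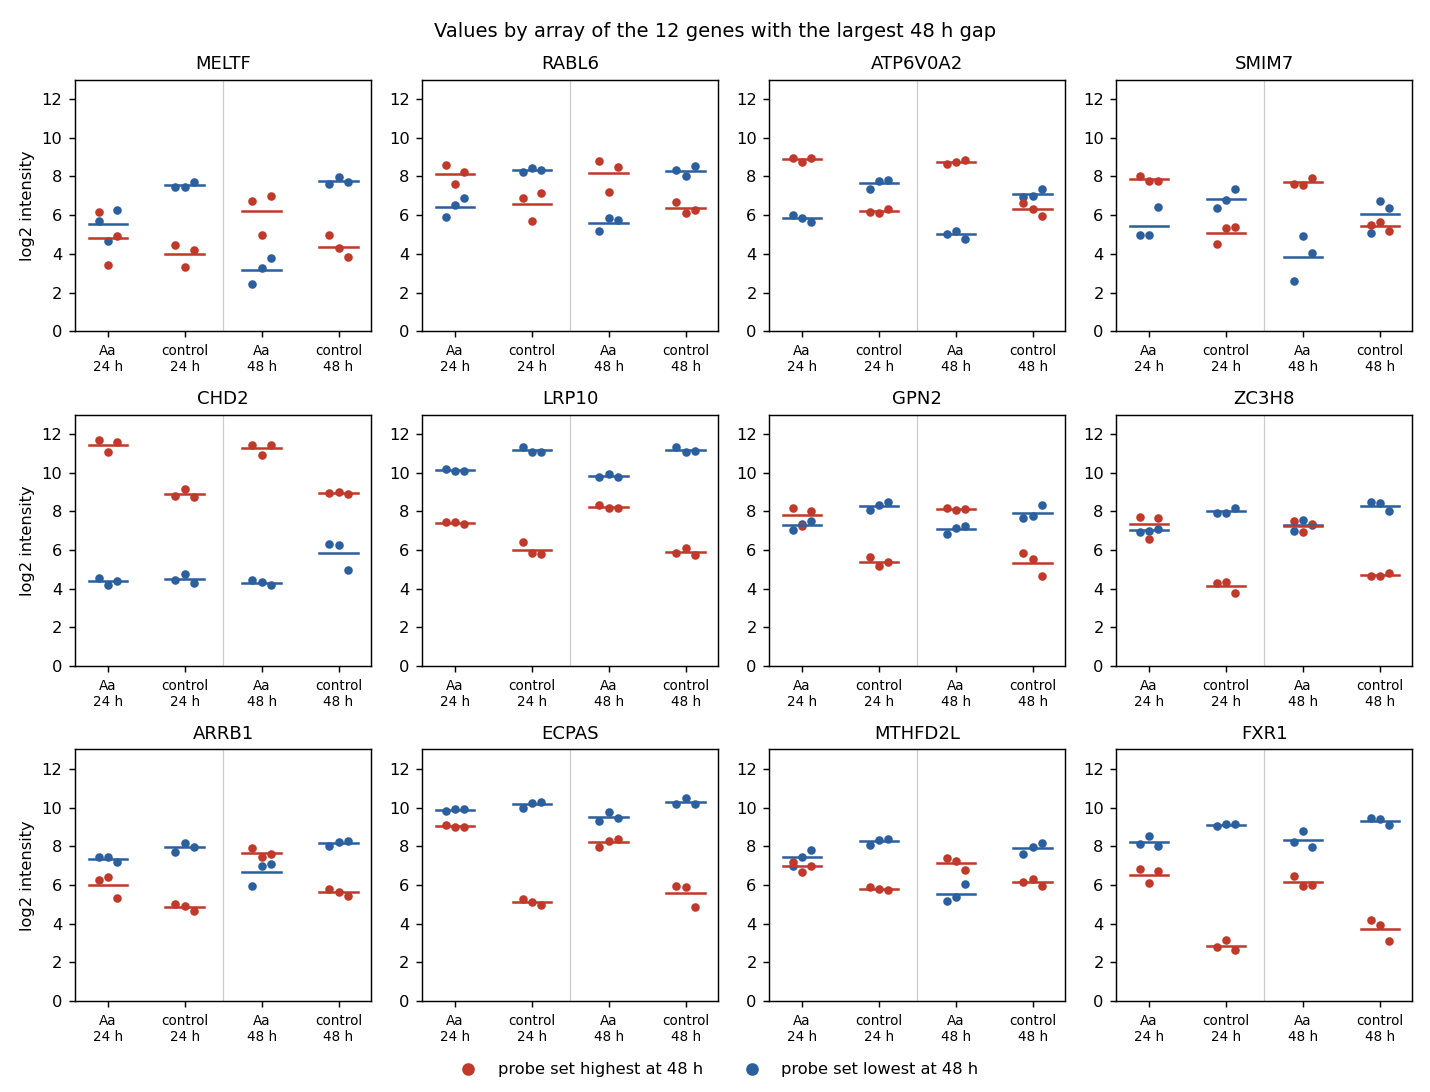
Log2 intensity by array of the highest (red) and lowest (blue) probe set of the 12 genes with the largest gap at 48 h; points are the 3 arrays of a group and lines their mean. Levels of different probe sets cannot be compared with each other, so the plot is read within a colour: red points lie higher in Aa than in control at 48 h and blue points lower, with an overlap for the red points of MELTF.

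In the group of 8 genes of signalling and cell death the 24 h difference passed in 8, the highest probe set rose in 6 and the lowest fell in 6. Over all 70 members these counts were 66, 54 and 51. ARRB1 encodes beta-arrestin 1, which switches off G protein-coupled receptors, and its 6 probe sets divided into 3 with positive and 3 with negative changes at both times. Probe set 49111_at read 6.27, 6.39 and 5.31 in Aa cells against 4.99, 4.93 and 4.63 in control cells at 24 h. At 48 h 49111_at read 7.90, 7.44 and 7.59 in Aa cells against 5.81, 5.65 and 5.41 in control cells. This was a rise of 1.14 at 24 h (SE 0.26, adjusted p = 0.0090), and 43511_s_at and 221861_at rose by 1.23 and 1.07. Probe set 222912_at read 7.42, 7.45 and 7.20 in Aa cells against 7.70, 8.14 and 7.97 in control cells at 24 h. At 48 h 222912_at read 5.92, 6.98 and 7.10 in Aa cells against 7.99, 8.20 and 8.25 in control cells. Its 24 h change of -0.58 did not pass (adjusted p = 0.138, and 0.0589 with the block), although the groups did not overlap. The 24 h difference of ARRB1 was 1.72 (SE 0.39, adjusted p = 0.00691), and without replicate 2 in all groups it was 1.51 with an adjusted p of 0.108.

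AKT2, a kinase gene of insulin signalling, also had probe sets in 2 sets. Probe set 236664_at read 5.84, 5.19 and 5.20 in Aa cells against 2.53, 2.99 and 2.53 in control cells at 24 h. At 48 h 236664_at read 5.99, 5.12 and 4.62 in Aa cells against 3.00, 3.05 and 2.99 in control cells. The controls lay below 4, so the rise of 2.73 (SE 0.30, adjusted p = 0.000168) is uncertain in size, and the probe set was eligible only through its Aa arrays; 226156_at rose by 2.28. Probe set 211453_s_at read 4.54, 3.31 and 4.87 in Aa cells against 6.04, 4.95 and 5.85 in control cells at 24 h. At 48 h 211453_s_at read 4.85, 3.43 and 4.53 in Aa cells against 5.45, 4.86 and 5.57 in control cells. Replicate 2 was the lowest in each group here, and the change of -1.38 missed the threshold (adjusted p = 0.0559) but passed with the block (adjusted p = 0.00043). The probe set 225471_s_at of AKT2 fell by 0.94 (adjusted p = 0.00104). STRN, the gene of the phosphatase scaffold striatin, had 4 probe sets that rose, 242989_at by 2.85, and 1 that fell, 236388_at by 0.95. PAWR, a pro-apoptotic protein gene, rose by 1.71 and fell by 0.90. AIFM2, which encodes a suppressor of ferroptosis, rose by 0.97 and fell by 1.54, and the adaptor gene SH3BP2 rose by 1.59 and fell by 1.18. The lowest probe set of SH3BP2 was eligible only through its control arrays, so it had to differ and the size of its fall is uncertain. In CARD8, an inflammasome gene, and NOL3, an inhibitor of apoptosis, the lowest probe set fell by 1.31 and 0.84, and the highest read 0.49 and 0.80 (adjusted p = 0.125 and 0.175). With the block that of NOL3 passed (adjusted p = 0.0218).

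Of 7 genes of the ubiquitin and SUMO systems the 24 h difference passed in 7, the highest probe set rose in 6, and the lowest fell in 3 (in 6 with the block). Over all 70 members these counts were 66, 54 and 51 (63 with the block). ECPAS encodes an adaptor that binds the proteasome. Probe set 212427_at read 9.09, 9.00 and 8.97 in Aa cells against 5.27, 5.13 and 4.94 in control cells at 24 h. At 48 h 212427_at read 7.95, 8.27 and 8.39 in Aa cells against 5.96, 5.91 and 4.84 in control cells. This rose by 3.91 at 24 h (SE 0.25, adjusted p = 6.62e-06), and was higher by 2.64 at 48 h. Probe set 214356_s_at read 9.80, 9.91 and 9.92 in Aa cells against 10.00, 10.24 and 10.28 in control cells at 24 h. At 48 h 214356_s_at read 9.33, 9.76 and 9.46 in Aa cells against 10.21, 10.48 and 10.19 in control cells. Aa arrays were lower than controls at both times, but the 24 h change of -0.29 did not pass (adjusted p = 0.146, and 0.032 with the block). DESI1 encodes a protease that removes SUMO. Probe set 212528_at read 8.65, 8.49 and 8.69 in Aa cells against 7.67, 7.82 and 7.98 in control cells at 24 h. At 48 h 212528_at read 8.80, 8.77 and 8.99 in Aa cells against 8.25, 7.99 and 8.04 in control cells. It rose by 0.79 (SE 0.12, adjusted p = 0.00113). Probe set 212527_at read 5.18, 5.29 and 5.60 in Aa cells against 7.32, 7.46 and 7.47 in control cells at 24 h. At 48 h 212527_at read 5.42, 5.59 and 5.90 in Aa cells against 6.97, 6.97 and 7.30 in control cells. It fell by 2.06 (SE 0.16, adjusted p = 1.73e-05), further than at 48 h (-1.45).

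RNFT2 encodes a RING finger protein of membranes. Probe set 221908_at read 8.12, 7.77 and 7.34 in Aa cells against 6.48, 5.90 and 6.06 in control cells at 24 h. At 48 h 221908_at read 8.07, 8.41 and 7.09 in Aa cells against 7.00, 6.71 and 6.15 in control cells. This rose by 1.60 (SE 0.34, adjusted p = 0.00709). Probe set 221909_at read 6.80, 6.63 and 6.21 in Aa cells against 7.52, 7.41 and 7.20 in control cells at 24 h. At 48 h 221909_at read 6.29, 6.94 and 5.41 in Aa cells against 7.61, 7.77 and 7.35 in control cells. The groups lay apart, but the change of -0.83 missed the threshold (SE 0.32, adjusted p = 0.0835) and passed with the block (adjusted p = 0.0152). The difference of the 2 probe sets, in which swings shared by them cancel, was 2.42 with an SE of 0.18 (adjusted p = 4.97e-06). USP9X, a deubiquitinase gene, rose by 1.43 and fell by 0.57. The ubiquitin ligase genes ARIH2 and FBXL20 rose on their highest probe set, by 1.23 and 1.32, and TRIM13 fell on its lowest, by 1.25.

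Among 7 metabolic genes the 24 h difference passed in 7, the highest probe set rose in 5 and the lowest fell in 6. Over all 70 members these counts were 66, 54 and 51. MTHFD2L encodes a mitochondrial enzyme of folate metabolism. Probe set 220346_at read 7.20, 6.68 and 6.99 in Aa cells against 5.87, 5.78 and 5.76 in control cells at 24 h. At 48 h 220346_at read 7.41, 7.25 and 6.77 in Aa cells against 6.16, 6.31 and 5.95 in control cells. This was a rise of 1.15 (SE 0.18, adjusted p = 0.00133). Probe set 238762_at read 6.99, 7.46 and 7.82 in Aa cells against 8.06, 8.31 and 8.37 in control cells at 24 h. At 48 h 238762_at read 5.19, 5.39 and 6.04 in Aa cells against 7.62, 7.96 and 8.19 in control cells. It fell by 0.83 at 24 h (SE 0.26, adjusted p = 0.0388), and the Aa arrays were lower again at 48 h. GART, a purine synthesis gene known to make a short transcript by polyadenylation within an intron, was read by 6 probe sets: 230766_at rose by 2.96 (adjusted p = 0.000584), 210005_at fell by 0.95 (adjusted p = 0.0168), and the other 4 read -0.66 to 0.00 without passing (230097_at passed with the block, adjusted p = 0.020). ELOVL6, a fatty acid elongase gene, rose by 1.69 on 227491_at (adjusted p = 0.00134) and fell on both other probe sets, by 1.85 on 210868_s_at (adjusted p = 0.00033) and by 1.74 on 204256_at. SC5D, an enzyme of cholesterol synthesis, rose by 1.02 and fell by 1.07. PCBD2, a dehydratase gene, fell by 1.90 on 1554894_a_at, and its other probe set read 0.58 (adjusted p = 0.251, and 0.0486 with the block). The hexokinase family gene HKDC1 fell by 1.43 on its lowest probe set and read 0.33 on its highest (adjusted p = 0.175, and 0.0463 with the block). The phospholipase gene PLAAT3 rose by 0.69, and its other probe set read -0.40 (adjusted p = 0.0619, and 0.00563 with the block).

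In 7 genes of the secretory pathway and extracellular space the 24 h difference passed in 6, the lowest probe set fell in 7 and the highest rose in 3 (in 5 with the block). Over all 70 members these counts were 66, 51 and 54 (62 with the block). MELTF encodes melanotransferrin, an iron-binding protein on the cell surface, and had a gap of 6.44 at 48 h. Probe set 220043_s_at read 6.18, 3.41 and 4.93 in Aa cells against 4.44, 3.34 and 4.21 in control cells at 24 h. At 48 h 220043_s_at read 6.71, 4.96 and 7.00 in Aa cells against 4.99, 4.30 and 3.82 in control cells. The groups overlapped at both times, and the 24 h change of 0.84 did not pass (SE 0.69, adjusted p = 0.424). Probe set 223723_at read 5.67, 4.64 and 6.29 in Aa cells against 7.46, 7.46 and 7.73 in control cells at 24 h. At 48 h 223723_at read 2.46, 3.29 and 3.78 in Aa cells against 7.62, 7.97 and 7.72 in control cells. Aa arrays were below the controls throughout, with a fall of 2.01 at 24 h (SE 0.39, adjusted p = 0.00421) and a change of -4.59 at 48 h. The Aa arrays at 48 h were all below 4, so that change and the gap are uncertain in size. The remaining MELTF probe set, 235911_at, rose by 1.00 at 24 h (adjusted p = 0.0127). Without replicate 3 in all groups the adjusted p of the 24 h difference was 0.053.

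ASPH encodes an aspartate hydroxylase of the endoplasmic reticulum, and its locus is known to make several distinct proteins. Probe set 242037_at read 6.60, 6.07 and 6.26 in Aa cells against 4.55, 4.55 and 4.90 in control cells at 24 h. At 48 h 242037_at read 6.39, 6.55 and 6.38 in Aa cells against 3.97, 3.89 and 4.46 in control cells. This rose by 1.65 (SE 0.18, adjusted p = 0.000157). Probe set 205808_at read 6.91, 7.45 and 7.14 in Aa cells against 7.64, 8.07 and 8.02 in control cells at 24 h. At 48 h 205808_at read 6.92, 7.42 and 6.37 in Aa cells against 7.79, 7.94 and 8.05 in control cells. This fell by 0.75 (SE 0.24, adjusted p = 0.0454), 224996_at fell by 0.56, and the other 3 ASPH probe sets read -0.33 to -0.04 without passing. LGALS8, the galectin 8 gene, rose by 1.81 on 210731_s_at and fell by 0.89 on 208934_s_at. KAZALD1 rose by 1.11 and fell by 0.57. The protease gene PRSS23 fell by 2.22 on 229441_at, which was eligible only through its control arrays, so that the size is uncertain. In ERP44, a chaperone gene of the secretory pathway, the lowest probe set fell by 0.52 and the highest read 1.04 (adjusted p = 0.119, and 0.0186 with the block). THSD4, which spans 686 kb, the longest of the members, had a 24 h difference of 0.81 (SE 0.43, adjusted p = 0.230) that did not pass.

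Among 7 genes of other or unclear function the 24 h difference passed in 7, the highest probe set rose in 7 and the lowest fell in 5. Over all 70 members these counts were 66, 54 and 51. SMIM7 encodes a small membrane protein and was read by 4 probe sets. Probe set 221988_at read 8.04, 7.79 and 7.75 in Aa cells against 4.51, 5.31 and 5.4 in control cells at 24 h. At 48 h 221988_at read 7.60, 7.55 and 7.94 in Aa cells against 5.51, 5.64 and 5.18 in control cells. This rose by 2.79 (SE 0.23, adjusted p = 2.51e-05), with no overlap at either time. Probe set 1559382_at read 4.95, 4.97 and 6.40 in Aa cells against 6.37, 6.78 and 7.37 in control cells at 24 h. At 48 h 1559382_at read 2.60, 4.92 and 4.03 in Aa cells against 5.05, 6.71 and 6.35 in control cells. The groups overlapped at 24 h, and the change of -1.40 did not pass (SE 0.62, adjusted p = 0.133, and 0.0251 with the block). GPN2 encodes a GTPase of a family that takes part in the assembly of RNA polymerase II. Probe set 235058_at read 8.18, 7.26 and 8.02 in Aa cells against 5.64, 5.19 and 5.37 in control cells at 24 h. At 48 h 235058_at read 8.18, 8.07 and 8.12 in Aa cells against 5.84, 5.54 and 4.66 in control cells. This was a rise of 2.42 (SE 0.30, adjusted p = 0.000332). Probe set 218799_at read 7.05, 7.33 and 7.48 in Aa cells against 8.08, 8.34 and 8.48 in control cells at 24 h. At 48 h 218799_at read 6.84, 7.16 and 7.25 in Aa cells against 7.65, 7.77 and 8.30 in control cells. It fell by 1.01 at 24 h (SE 0.19, adjusted p = 0.00399), with no overlap at either time.

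MPHOSPH9, a gene of the centriole, had 2 probe sets in each direction. Probe set 215731_s_at read 10.14, 10.00 and 9.88 in Aa cells against 8.41, 8.64 and 8.63 in control cells at 24 h. At 48 h 215731_s_at read 9.69, 9.96 and 9.76 in Aa cells against 8.55, 8.67 and 8.19 in control cells. This rose by 1.45 (SE 0.14, adjusted p = 8.53e-05), and 1558369_at rose by 1.24. Probe set 237158_s_at read 5.99, 6.29 and 6.23 in Aa cells against 7.40, 8.24 and 8.04 in control cells at 24 h. At 48 h 237158_s_at read 5.74, 6.25 and 5.78 in Aa cells against 7.17, 7.60 and 7.74 in control cells. It fell by 1.72 (SE 0.23, adjusted p = 0.000559), and 206205_at fell by 1.63. CCDC50, a coiled-coil protein gene of growth factor signalling, was the other gene of this kind. Probe set 226713_at read 10.29, 10.74 and 10.15 in Aa cells against 8.26, 8.78 and 8.26 in control cells at 24 h. At 48 h 226713_at read 9.68, 10.20 and 9.33 in Aa cells against 8.66, 9.22 and 8.05 in control cells. This rose by 1.96 (SE 0.31, adjusted p = 0.00132), and 228693_at rose by 2.08. Probe set 225331_at read 9.78, 10.16 and 9.70 in Aa cells against 11.47, 11.43 and 11.28 in control cells at 24 h. At 48 h 225331_at read 9.52, 10.13 and 9.27 in Aa cells against 11.22, 11.20 and 11.05 in control cells. It fell by 1.52 (SE 0.20, adjusted p = 0.000476), and 236831_at fell by 0.89, while 235051_at read 0.69 without passing (with the block, adjusted p = 0.00105). HTT, the huntingtin gene, known for mRNAs with different 3′ ends, rose by 1.28 on 202390_s_at (adjusted p = 0.000687) and fell by 0.59 on 202389_s_at (adjusted p = 0.0106). WDR13 rose by 1.10 and fell by 0.90. Its highest probe set was eligible only through its Aa arrays, so it had to differ and the size of the rise is uncertain. C2orf68 rose by 1.85 on its highest probe set, and its lowest read -0.64 (adjusted p = 0.266).

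The remaining 3 members are a pseudogene and genes named for lying opposite to another gene. FAM120AOS, named for the strand opposite to FAM120A, rose by 0.87 and fell by 1.09. AHSA2P, a pseudogene, passed for the difference at 24 h (1.81, adjusted p = 0.00468), and its lowest probe set missed the threshold (adjusted p = 0.0515, and 0.00658 with the block). That probe set was eligible only through its control arrays, so it had to differ and the sizes are uncertain. MAGI2-AS3, an antisense transcript to a very long gene, had a 24 h difference of 0.97 (SE 0.44, adjusted p = 0.155) that passed with the block (adjusted p = 0.0340).

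Between the highest and lowest probe sets lay 97 others in the 46 genes with at least 3, of which 21 rose and 15 fell at 24 h, against 11.4% and 11.9% of all eligible probe sets (27 and 27 with the block, against 18.5% and 22.2%). Where each gene is represented by its brightest eligible probe set, as is common, 34 of the 70 genes would be listed as lower at 48 h by at least 0.7, 20 as higher, and 16 as neither. A further 66 probe sets of the members had means below 4, and 22 had names ending in _x_at. Their 48 h differences ran from -1.50 to 2.15 for the dim probe sets and from -1.63 to 1.47 for the others. In 6 of the 70 highest probe sets the control mean was below 4 at 24 h, and in 3 at 48 h. In 3 of the lowest the Aa mean was below 4 at 24 h, and in 7 at 48 h, so their changes are uncertain in size.

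The sequence records listed for the probe sets had not been used by the rule, and their names only to leave out those ending in _x_at. Names ending in plain _at, which mark probes unique to a transcript, belonged to 55 of the 70 highest probe sets (78.6%) and to 38 of the lowest (54.3%), against 56.7% of the 12215 eligible probe sets of genes with at least 2. Names ending in _s_at, which mark probes common to several transcripts, belonged to 14 of the highest (20.0%) and 31 of the lowest (44.3%), against 40.5%. The sequence record that the annotation lists for the probe set was an expressed sequence tag (EST), a short read of a cDNA clone, in 41 of the highest (58.6%) and 23 of the lowest (32.9%), against 36.9%. It was a RefSeq transcript in 5 and 11 (7.14% and 15.7%, against 22.2%), and another cDNA or mRNA record in 11 and 24 (15.7% and 34.3%, against 21.9%). The highest probe sets were also dimmer. In control cells at 24 h their median log2 intensity was 5.92, against 8.08 for the lowest and 8.14 for the 12215. The highest was the dimmer of the 2 in 57 of the 70 genes. Such levels are intensities of different probes and do not compare amounts of transcript. These shares and levels were not tested.

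**Figure D4:**
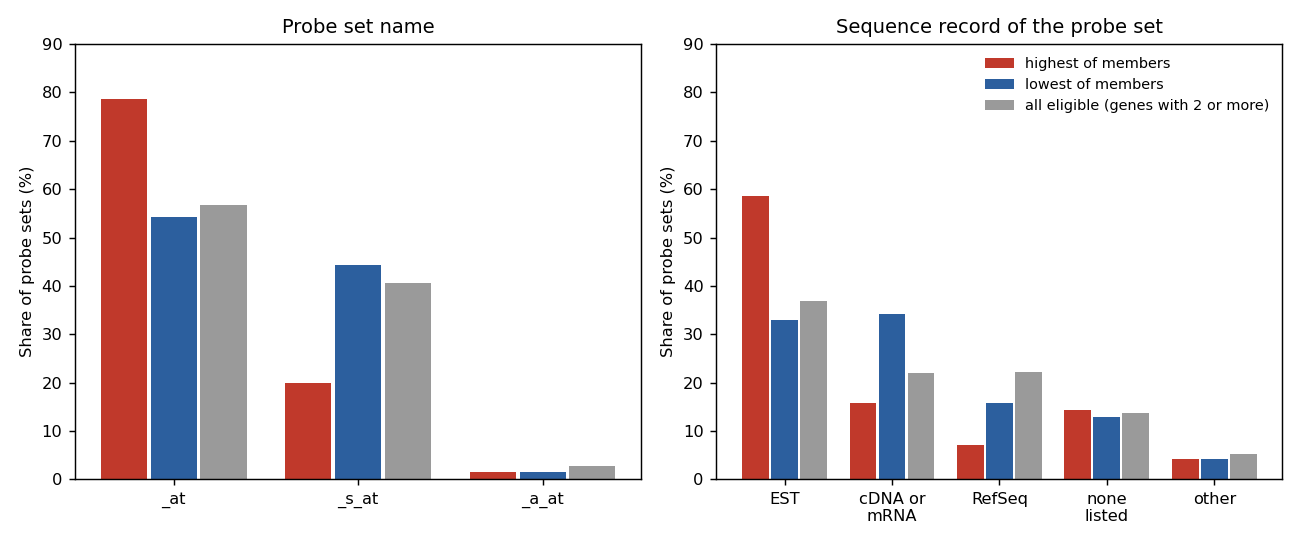
Share of probe sets (%) by the ending of their name (left) and by the kind of sequence record listed for them (right), for the highest and the lowest probe set of each of the 70 genes and for the 12215 eligible probe sets of genes with at least 2. Plain _at names and EST records took a larger share of the highest probe sets than of the lowest. The highest were also dimmer in control cells at 24 h, with a median log2 intensity of 5.92 against 8.08.

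The span of the members in the GRCh38.p14 annotation had a median of 48.3 kb (quartiles 21.8 and 106.3 kb), against 42.8 kb (19.7 and 93.1 kb) for the 4693 other genes with at least 2 eligible probe sets. Spans over 300 kb were found in 2 members, THSD4 and MSI2 (2.86%, against 3.84%). Another protein-coding or long non-coding gene overlapped the span of 39 of the 69 members with such data (56.5%, against 47.5%). The share of members was larger among genes with more eligible probe sets, which have more pairs that can meet the rule: 0.811% of genes with 2, 1.61% with 3, 2.76% with 4 and 7.89% with 5 or more.

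At the threshold, TFDP2 (0.70 and -0.75), STRN (2.09 and -0.72) and KAZALD1 (0.77 and -0.72) were the members that met it most narrowly at 48 h. PHF19 (0.70 and -0.73), PAX8 (0.70 and -0.70) and GGA2 (0.70 and -0.76) fell just short of it, with a highest change of 0.6988, 0.6959 and 0.6955. When the rule was applied to the 24 h arrays in place of the 48 h arrays, it gave 98 genes. These shared 44 with the 70 members, 62.9% of the 48 h genes and 44.9% of the 24 h genes.

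The genes whose products choose and cut the 3′ ends of mRNA were described beside the members. These proteins and the U1 particle act where transcript ends are formed. Whether changes of these genes are linked to those of the members was not tested. Of 23 such genes 22 were tested, each by its brightest eligible probe set, and none is a member. At 24 h 6 rose and 0 fell, against 10.4% and 13.1% of the 10435 genes tested (limma, 7 and 2 at an unadjusted p under 0.05). With the block 7 rose and 3 fell. At 48 h 8 rose and 2 fell, against 17.6% and 20.3% of all genes, and 12 rose and 3 fell with the block. Without replicate 1 in all groups 1 rose and 0 fell at 48 h, and without replicate 3 the counts were 4 and 0, with 3 up at 24 h. The median change was 0.02 at 24 h and 0.32 at 48 h, against -0.02 and -0.00329 over all genes. CSTF3, a subunit of the cleavage stimulation factor, averaged 11.04 ± 0.08 in Aa cells and 10.30 ± 0.06 in control cells at 24 h (SD, n = 3 each), a rise of 0.74 (SE 0.09, adjusted p = 0.000297 in limma), and rose by 0.82 at 48 h. PCF11, a termination factor, averaged 10.10 ± 0.40 in Aa cells and 8.54 ± 0.28 in control cells at 24 h, and rose by 1.56 (adjusted p = 0.00134) and at 48 h by 1.06 (adjusted p = 0.00618). CSTF2T rose by 1.11 and 0.67, and the poly(A) polymerase gene PAPOLG by 1.97 and 0.99. The U1 protein gene SNRPC rose by 0.51 at 48 h (adjusted p = 0.00396) and read 0.23 at 24 h (adjusted p = 0.151). The 2 genes that fell at 48 h were CPSF4 (-0.38, adjusted p = 0.0288) and another U1 protein gene, SNRPA (-0.35, adjusted p = 0.0324).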

How the data were processed

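The series holds 12 Affymetrix arrays. The deposited values are log2 intensities, normalised by the authors with GCRMA per the submitters' processing notes, with no version given in the sources used here. GCRMA adjusts for background by probe sequence, which makes values near background uncertain. Precision is limited by the number of arrays.

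Of 54675 probe sets 41097 had 1 gene, 1801 several and 11777 no entry in the platform annotation, and 1 probe set was shared by a member and another gene. Symbols were updated through gene identifiers (41043 found in GRCh38.p14, 54 kept). The 17887 eligible probe sets and the 11379 pairs of eligible probe sets within a gene were fitted with limma 3.58.1 in R 4.3.3 (4 group means, 8 residual degrees of freedom, lmFit and eBayes without trend, two-sided, Benjamini-Hochberg adjustment over each table, threshold 0.05). A pair was the value of the probe set with the higher 48 h change minus that of the other on the same array. Rose and fell mean calls. Calls come from this fit, which does not use the replicate number, except where the block is named. The test was checked on simulated data, and the outcome is not given here.

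The members and lists were chosen with earlier results of these data known. Array values are given for the 15 members with the largest 48 h gap and the 10 with the smallest p for the 24 h difference; functional groups were formed after the members were seen. For the 3′ end genes up to 4 with the smallest p at each time are named, and those that fell at 48 h.

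The labels do not say that replicate numbers mark shared cultures. Deviations from the group means correlated, over the eligible probe sets, with r from 0.38 to 0.60 between same-numbered arrays of different groups (18 pairs) and from -0.49 to -0.03 between differently numbered ones (36 pairs), so the numbers were taken to pair the arrays, and the number was a block in an alternative fit. Deviations cancel within a group, so positive values between same-numbered arrays bring negative ones between the others. The negative range is therefore no separate support for the pairing. How separate the cultures were is not stated, and a p-value covers only the spread between these arrays, which may be technical. Alternatives covered left-out replicates and arrays, scaling, filters, probe set names, the threshold and the variance model.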

Additional observations from a re-analysis of the deposited data

How the results depend on the processing

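The direction of the 24 h difference was the same in all 70 genes under every alternative that gave a value, and of the 66 differences that passed the test 48 passed under all of them, 11 missed under 1 alternative (AHSA2P, ARRB1, CARD8, FBXL20, HKDC1, KAZALD1, MELTF, N4BP2L2, NOL3, NOL4L and VAPA) and 7 under more (DEF8, DIDO1, ERP44, PLAAT3, QKI, SBF1 and TRIM13). The number of members was 151 at a threshold of 0.5, 30 at 1.0 and 39 without _s_at and _a_at probe sets, and 58 to 85 when replicates or arrays were left out. With those probe sets left out, which also leaves fewer probe sets to test, 32 of 33 remaining differences passed, the lowest probe set fell in 27 of 38, and 1162 within-gene pairs changed at 24 h, in place of 2558. Without a filter on level 4471 pairs changed. With the replicate number as a block 7288 probe sets changed at 24 h in place of 4171, 68 of the 70 differences passed, and 3 of the 3′ end genes fell at 24 h. Other counts that the block moved by over 1.5 times stand beside those counts. In an alternative chosen after seeing the data, which left out probe sets eligible only through the group where they were high, 60 differences passed, 51 highest probe sets rose and 49 lowest fell. Leaving out replicates or arrays gave 1216 to 4328 changed probe sets, 1454 to 2600 changed pairs, 33 to 55 highest probe sets that rose, 29 to 54 lowest that fell, and 56 to 67 differences of the members that passed. Without replicate 3 in all groups 1736 probe sets changed, the lowest fell in 32 genes and 4 of the 3′ end genes rose at 48 h, and without replicate 2 in all groups 1637 pairs changed. Leaving out replicates gave 3 to 6 of the 3′ end genes up and 0 down at 24 h, and 1 to 9 up and 0 to 1 down at 48 h. Such fits have fewer arrays. Among the 21 genes with values by array, the difference missed the threshold in 3 of 494 alternative fits, those given for MELTF, ARRB1 and VAPA.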
